A study of Mus musculus with 11 samples.

Results

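Tubulins are the proteins that microtubules are built from, and mice encode each of the alpha and beta subunits in several genes, the isotypes. RNA levels of 10 tubulin genes were examined in the livers of mice that expressed either a decoy against *miR-379* and *miR-541* or a control sequence. The genes were chosen by symbol: *Tuba1a*, *Tuba1b*, *Tuba1c*, *Tuba4a* and *Tuba8* for alpha-tubulin, and *Tubb2a*, *Tubb2b*, *Tubb4b*, *Tubb5* and *Tubb6* for beta-tubulin. The counts held a row for 8 of the 10, 4 of alpha- and 4 of beta-tubulin, among 13669 genes in all, and all 8 passed the filter on low counts, which kept 13334 genes. *Tuba8* and *Tubb2b* had no row and were not analysed here.

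The samples were livers of wild-type male C57BL/6J mice kept on regular chow, 5 with the negative control (NC, replicates 1, 2, 6, 7 and 8) and 6 with the tough decoy (TuD, replicates 3, 4, 5, 9, 10 and 11). A tough decoy (TuD) is a transcript that holds microRNAs on binding sites placed in a protected loop, and this TuD carried 1 site for *miR-379* and 1 for *miR-541*. Both sequences were delivered by tail vein in the same adeno-associated virus vector with an AAV8 capsid. The LP1 promoter is built from hepatocyte control elements, and the NC livers share the virus and the promoter. The AAV-NC insert listed by the study holds its microRNA control sequence and not its control decoy, so the inserts also differ in kind. The study obtained its mice at 6 weeks of age, acclimated them for 4 weeks and killed them after 5 to 6 h without food, 4 weeks to 3 months after the virus, and which time applies to each of these livers is not given in the sources used here. The tissue was whole liver, which holds stellate, bile duct, endothelial and immune cells beside the hepatocytes that the promoter targets. In bulk RNA of this kind, fewer cells of a type and less RNA per cell cannot be told apart.

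Alpha- and beta-tubulin fold with the help of the CCT chaperonin and the tubulin cofactors, pair into dimers, and polymerise from a ring of gamma-tubulin. In hepatocytes, microtubules carry secreted proteins and lipoproteins outward and bring membrane proteins to the bile canaliculus. *Tuba1b* and *Tuba1c* are broadly expressed alpha isotypes, and *Tuba1a* is best known from developing neurons. *Tuba4a* encodes an alpha-tubulin whose chain ends without the tyrosine that ends the *Tuba1c* chain. *Tubb5* is the broadly expressed beta isotype, *Tubb2a* is abundant in neurons and found in many tissues, *Tubb4b* is a main isotype of cilia, and *Tubb6* encodes a more divergent isotype that is found at low levels in many tissues. Tubulin mRNAs are also degraded when free dimers accumulate, through recognition of the start of the growing chain by the factor encoded by *Ttc5*.

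The sequences of the decoyed microRNAs are shown because microRNAs mostly recognise their targets through the seed. Both were read from RefSeq (GRCm38.p6) as the 5p arms, *miR-379-5p* at chr12:109709065-109709085 and *miR-541-5p* at chr12:109742422-109742446, each on the plus strand, with the seed (bases 2 to 8) in capitals.

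miR-379-5p: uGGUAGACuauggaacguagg

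miR-541-5p: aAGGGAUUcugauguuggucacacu

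None of the 10 tubulin genes had the letters GTCTACC or AATCCCT, which pair with these seeds, on the mRNA strand of its longest annotated 3′ untranslated region. These regions ranged from 101 bases in *Tuba1c* to 1394 bases in *Tuba4a*. Among the 10955 tested genes with such a region, 5.1% held the match to *miR-379-5p* and 8.83% the match to *miR-541-5p*. Other kinds of pairing were not searched. The study reported that this TuD also lowered other microRNAs of the same gene cluster, and matches to their seeds were not searched.

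The isotypes are close in sequence, which bears on how reads can be assigned. Between alpha genes, 79.16% to 98.3% of aligned coding bases were identical, with *Tuba1a* and *Tuba1b* the closest pair. Beta genes shared 80.31% to 96.49%, and alpha with beta genes 54.77% to 58.46%. The last 20 codons of *Tuba1c*, *Tuba4a*, *Tubb5*, *Tubb2a* and *Tubb4b*, where the acidic tail of the protein is encoded and isotypes differ most, are shown 5′ to 3′ on the coding strand in GRCm38, with the stop codon in capitals. Each of these stretches lies in 1 exon, at chr15:99037950-99038009 (plus strand, *Tuba1c*), chr1:75215622-75215681 (minus, *Tuba4a*), chr17:35834982-35835041 (minus, *Tubb5*), chr13:34074468-34074527 (minus, *Tubb2a*) and chr2:25222308-25222367 (minus, *Tubb4b*).

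Tuba1c: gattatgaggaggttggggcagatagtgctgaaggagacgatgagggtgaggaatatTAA

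Tuba4a: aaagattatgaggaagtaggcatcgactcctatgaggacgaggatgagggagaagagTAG

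Tubb5: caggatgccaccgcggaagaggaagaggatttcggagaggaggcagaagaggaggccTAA

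Tubb2a: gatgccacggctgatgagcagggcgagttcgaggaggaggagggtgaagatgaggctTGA

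Tubb4b: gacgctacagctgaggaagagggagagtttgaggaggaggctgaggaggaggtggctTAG

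Codons for the acidic residues aspartate and glutamate made up 10 of the last 19 before the stop in *Tuba1c*, and 11 in *Tuba4a* and the 3 beta genes shown. The *Tuba1c* sequence ends on a tyrosine codon before the stop, and *Tuba4a* ends on a glutamate codon. The libraries read the 3′ end of transcripts, so the last 300 bases of each transcript were compared with all annotated transcripts, in the sense orientation only. In this window *Tuba1a* matched *Tuba1b* at 99.0% over 103 bases, and *Tuba1c* matched *Tuba1b* at 94.1% over 185 bases. *Tuba1c* matched 41 other annotated genes, of which 3 were tested, and those 3 were alpha-tubulin genes; the rest included *Gm6682* with 97.5% identity over 199 bases. The windows of *Tuba4a*, *Tubb5* and *Tubb6* matched no other gene in this orientation. Genes that overlap on the opposite strand, such as *Stk16* at *Tuba4a*, were outside this search. Values for *Tuba1a*, *Tuba1b*, *Tuba1c*, *Tubb2a* and *Tubb4b* are therefore uncertain to the extent that reads from near-identical copies were split or shared among them, since the handling of such reads is not given in the sources used here.

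Each liver had between 8148531 and 12043959 counted reads. Reads of *Mup* genes, which encode major urinary proteins, made up 40.2% of NC 7, 32.3% of TuD 3 and 29.6% of TuD 5, and 8.58% to 19.5% of each remaining library. Levels are given as CPM, the usual read count per gene at a common library total, after edgeR's TMM scaling of library sizes by factors from 0.667 to 1.24. Because a transcript gives about 1 read whatever its length in this 3′ protocol, CPM were compared between genes without division by length. Without TMM the median gene moved to a log2 fold change of 0.23, and directions given here are relative to the TMM scale, on which it was -0.0024.

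The liver tubulin RNA was dominated by a few isotypes in both groups. *Tuba1c* was the highest at 163 ± 20.2 CPM in NC livers (mean ± SD, n = 5) and 177 ± 29.4 CPM in TuD livers (n = 6), and it ranked 521 of the 13334 tested genes by mean CPM. *Tuba1b*, *Tubb5* and *Tubb2a* followed between 37.5 and 55.9 CPM in both groups. *Tuba4a*, *Tuba1a*, *Tubb6* and *Tubb4b* formed a low set, with group means from 1.31 to 5.33 CPM. Within alpha-tubulin, *Tuba1c* exceeded *Tuba1b*, and *Tuba1b* exceeded *Tuba1a*, in all 11 livers. Within beta-tubulin, *Tubb2a* exceeded *Tubb6* in all 11 livers. *Tubb5* and *Tubb2a* were not separated in NC livers, where *Tubb5* was the higher in 3 of 5, whereas it was the higher in 6 of 6 TuD livers. The order of *Tuba1a* and *Tuba4a* also differed, with *Tuba1a* above *Tuba4a* in 0 of 5 NC and 5 of 6 TuD livers.

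**Figure D1:**
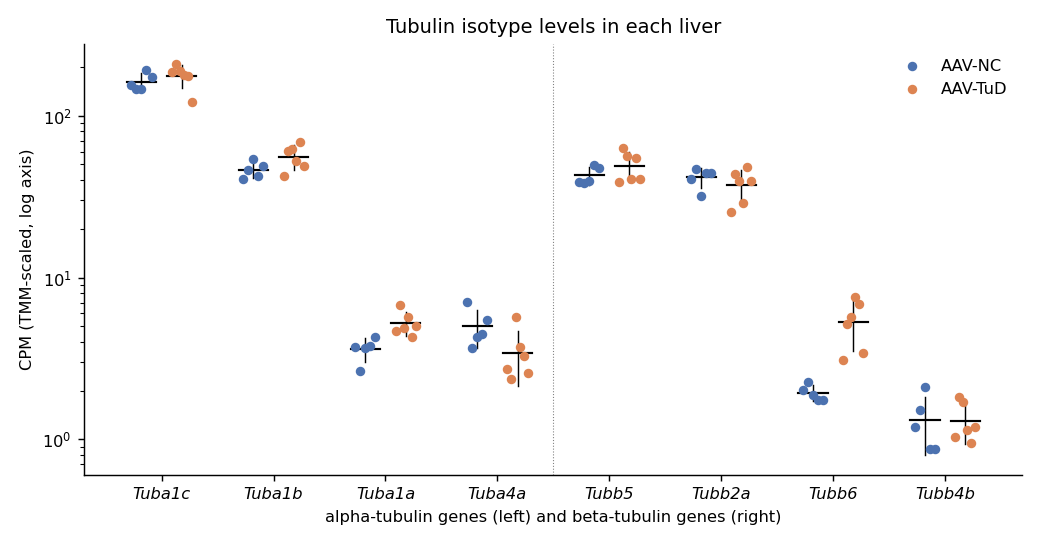
Level of each tested tubulin gene in each liver, in TMM-scaled CPM on a log axis, with NC livers in blue and TuD livers in orange; horizontal lines are group means and vertical lines the SD. The TuD points lie above all NC points for *Tubb6* (3.10 to 7.61 against 1.75 to 2.27 CPM) and *Tuba1a* (4.31 to 6.74 against 2.64 to 4.28 CPM), and the groups overlap for the other 6 genes.

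Of the 8 tested tubulin genes, *Tubb6* and *Tuba1a* were higher in TuD livers at an adjusted p under 0.05 (edgeR quasi-likelihood test, Benjamini-Hochberg over 13334 genes), none was lower, and 6 did not pass. That is 25% of the members called higher, where 7.24% of all tested genes were called higher and 4.33% lower, 11.6% in either direction. At an unadjusted p under 0.05 the count in either direction was 4 of 8 members, *Tubb6*, *Tuba1a*, *Tuba1b* and *Tuba4a*, where 26.3% of all tested genes had such a p. The median log2 fold change of the members was 0.16, and 5 of 8 were positive. In CPM, all TuD livers lay above all NC livers for 2 of the 8, against 4.11% of all tested genes.

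*Tubb6* (GRCm38 chr18:67390717-67402749, plus strand, 4 exons) had the largest difference among the members. It was counted with 17, 18, 17, 14 and 18 reads in NC 1, 2, 6, 7 and 8, or 2.03, 2.27, 1.88, 1.75 and 1.75 CPM. In TuD 3, 4, 5, 9, 10 and 11 it had 33, 57, 54, 94, 80 and 40 reads, or 3.10, 5.19, 5.74, 7.61, 6.90 and 3.42 CPM. The NC livers were close together, the TuD livers spread widely, with TuD 9 and TuD 10 the highest and TuD 3 and TuD 11 the lowest, and the lowest TuD liver was still above the highest NC liver. The group means were 1.94 ± 0.217 CPM (SD, n = 5) and 5.33 ± 1.82 CPM (SD, n = 6), a fold of 2.75 and a log2 fold change of 1.46 ± 0.25 (SE) with an edgeR adjusted p of 0.00239. The call held under each of 19 alternative analyses, with log2 fold changes between 1.33 and 1.72.

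*Tuba1a* (chr15:98949837-98953703, minus strand, 4 exons) was the other gene called, at low counts and close to the threshold. NC 1, 2, 6, 7 and 8 had 3.70, 2.64, 3.65, 3.76 and 4.28 CPM, from 21 to 44 reads. TuD 3, 4, 5, 9, 10 and 11 had 4.70, 6.74, 4.89, 5.67, 4.31 and 5.04 CPM, from 46 to 74 reads. The groups did not overlap, but NC 8 at 4.28 and TuD 10 at 4.31 CPM nearly touched. The log2 fold change was 0.53 ± 0.16 (SE), with an edgeR adjusted p of 0.0493. The call was lost in 11 of 19 alternatives, among them DESeq2, the study's own tool, with an adjusted p of 0.0501, and when any of NC 1, 2, 6 and 7 or TuD 4, 5, 9 and 11 was left out, with adjusted p from 0.0597 to 0.111. *Tuba1a* is close in sequence to *Tuba1b*, as given above, and *Tuba1b* had about 10.9 times its level in TuD livers and 13.2 times in NC livers. Both genes also overlap the protein-coding gene *Gm49450* on the same strand in the annotation. How reads in that overlap were counted is not given in the sources used here, and its part in the *Tuba1a* call was not tested.

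The major alpha genes did not pass the test. *Tuba1c* (chr15:99029891-99038110, plus strand) was at 155, 147, 146, 193 and 174 CPM in NC 1, 2, 6, 7 and 8, and at 185, 210.4, 188, 178, 177 and 122 CPM in TuD 3, 4, 5, 9, 10 and 11. TuD 11 was the lowest and TuD 4 the highest of all 11 livers, and the groups overlapped, with a log2 fold change of 0.12 ± 0.12 (SE) and an edgeR adjusted p of 0.567. *Tuba1b* (chr15:98931425-98934565, minus strand) was at 40.7, 46.2, 54.2, 42.7 and 49.0 CPM in the NC livers and at 42.4, 60.2, 62.2, 52.4, 68.9 and 49.2 CPM in the TuD livers, in the same order. Only TuD 4, 5 and 10 lay above all NC livers, and the log2 fold change was 0.26 ± 0.12 (SE) with an edgeR adjusted p of 0.163. Without TuD 3, *Tuba1b* passed, at 0.33 and an edgeR adjusted p of 0.0449.

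*Tuba4a* (chr1:75214228-75219865, minus strand) was the member with the most negative value. NC 1, 2, 6, 7 and 8 had 7.04, 3.65, 4.32, 4.51 and 5.45 CPM, and TuD 3, 4, 5, 9, 10 and 11 had 2.72, 2.37, 5.74, 3.72, 3.28 and 2.57 CPM. TuD 3, 4, 10 and 11 lay below all NC livers, whereas TuD 5 exceeded 4 of the 5 NC livers. The log2 fold change of -0.57 ± 0.23 (SE) did not pass, with an edgeR adjusted p of 0.133, and without TuD 5 it was -0.76 with an adjusted p of 0.0291. The 3′ end of *Tuba4a* overlaps that of *Stk16*, a kinase gene on the other strand, over 1379 bases, and *Stk16* had a log2 fold change of -0.26 (edgeR adjusted p 0.198). The strand setting of the counting is not given in the sources used here, so reads of these neighbours may not be separable. The same limit holds for *Tuba1b* with *Gm41396* and *Tubb4b* with *Fam166a*, which also overlap on opposite strands.

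None of the other beta genes passed the test. *Tubb5* (chr17:35833921-35838306, minus strand) was at 38.8, 38.3, 39.6, 49.7 and 47.6 CPM in NC 1, 2, 6, 7 and 8 and at 38.8, 63.1, 56.7, 40.5, 54.8 and 40.7 CPM in TuD 3, 4, 5, 9, 10 and 11. TuD 4, 5 and 10 were above all NC livers and the rest among them, with a log2 fold change of 0.20 ± 0.13 (SE) and an edgeR adjusted p of 0.376. *Tubb2a* (chr13:34074274-34078007, minus strand) was at 40.8, 47.0, 32.1, 44.6 and 44.5 CPM in the NC livers and at 25.4, 43.8, 39.3, 28.7, 48.3 and 39.6 CPM in the TuD livers. TuD 3 and TuD 9 were below all NC livers, and the log2 fold change was -0.15 ± 0.15 (SE) with an edgeR adjusted p of 0.562. *Tubb4b* (chr2:25222160-25224702, minus strand) had only 7 to 20 reads per liver, at 1.31 ± 0.515 CPM in NC (SD, n = 5) and 1.31 ± 0.365 CPM in TuD livers (SD, n = 6). The log2 fold change of *Tubb4b* was -0.01 ± 0.29 (SE) with an edgeR adjusted p of 0.982, and its error leaves a difference of moderate size undetectable at this depth.

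**Figure D2:**
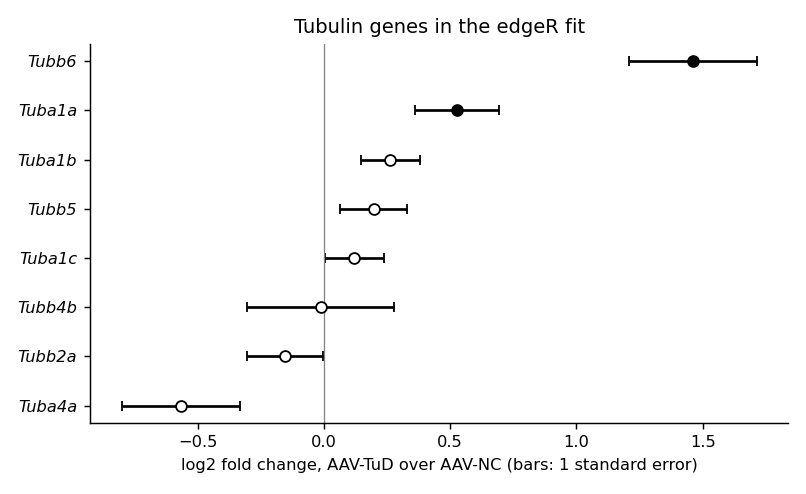
Log2 fold change of TuD over NC livers for each tested tubulin gene, with bars of 1 standard error from the edgeR fit; filled points have an adjusted p under 0.05. *Tubb6* at 1.46 and *Tuba1a* at 0.53 are filled, and the open points run from -0.57 for *Tuba4a* to 0.26 for *Tuba1b*.

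The isotype composition was then expressed as the share of each gene in the reads of its class, a measure that does not depend on library scaling and that was described without a test. Among alpha reads, *Tuba1c* made up 74.5% ± 3.22 (SD, n = 5) in NC and 73.1% ± 3.83 (SD, n = 6) in TuD livers, and *Tuba1b* 21.5% ± 3.27 and 23.3% ± 3.63. *Tuba1a* made up 1.65% ± 0.214 in NC and 2.19% ± 0.413 in TuD livers, where 5 of 6 TuD livers lay above all NC livers. *Tuba4a* made up 2.30% ± 0.655 and 1.41% ± 0.454, and 5 of 6 TuD livers lay below all NC livers. The minor alpha isotypes thus stood in opposite orders in the groups, on 21 to 74 reads per liver and gene.

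Among beta reads, the share of *Tubb6* did not overlap between the groups. It was 2.23% ± 0.366 (SD, n = 5) in NC livers, from 1.81% to 2.55%, and 5.77% ± 2.11 (SD, n = 6) in TuD livers, from 4.03% to 9.76%. For the highest TuD liver, TuD 9, 94 of 963 beta reads gave a 95% Wilson interval of 8.04% to 11.8%, and for the highest NC liver, NC 2, 18 of 707 gave 1.62% to 3.99%. Those for the lowest TuD liver, TuD 11, were 2.97% to 5.44%, which overlaps that of NC 2, and the intervals cover counting error only. *Tubb2a* made up 47.5% ± 3.85 of beta reads in NC and 40.1% ± 4.01 in TuD livers, with 4 of 6 TuD livers below all NC livers. *Tubb5* made up 48.7% ± 3.82 and 52.7% ± 3.53, and *Tubb4b* 1.55% ± 0.766 and 1.41% ± 0.286, with overlapping groups for both. As shares of a class sum to a fixed total, a larger share of 1 isotype lowers the others.

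**Figure D3:**
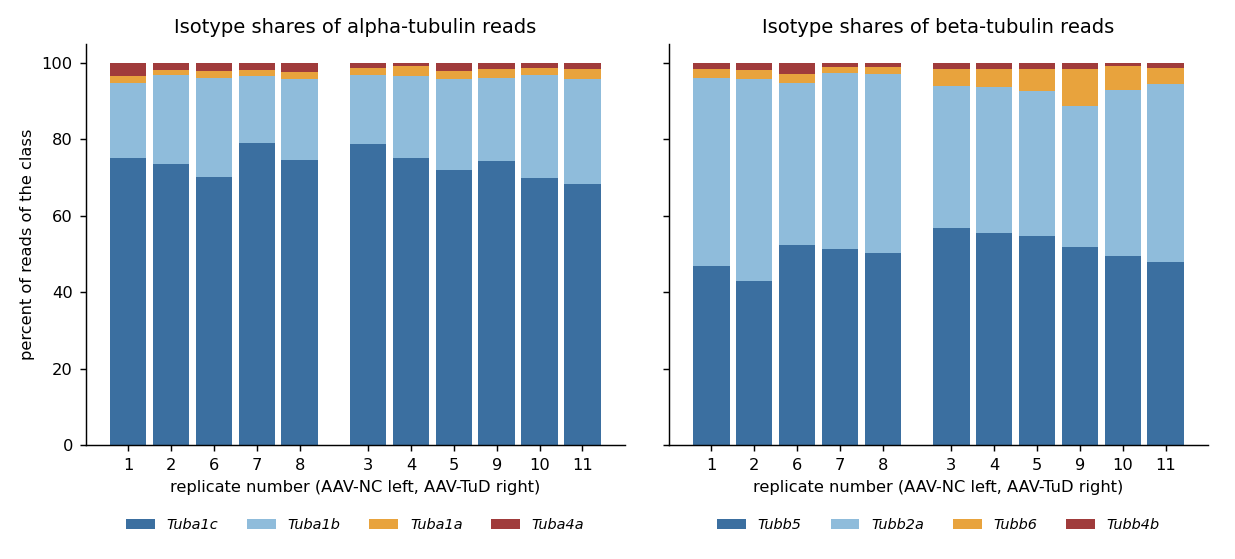
Percent of alpha-tubulin reads (left) and beta-tubulin reads (right) that each isotype took in each liver, with the 5 NC livers at the left of each panel and the 6 TuD livers at the right. *Tuba1c* fills most of each alpha bar, *Tubb5* and *Tubb2a* fill most of each beta bar, and the *Tubb6* band is wider in the TuD livers, at 4.03% to 9.76% against 1.81% to 2.55%.

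The summed tubulin level overlapped between the groups. The 4 alpha genes together were at 218 ± 19.2 CPM (SD, n = 5) in NC and 242 ± 34.5 CPM (SD, n = 6) in TuD livers. The 4 beta genes were at 87.8 ± 8.70 and 93.3 ± 18.8 CPM, and all 8 genes at 306 ± 26.2 and 335 ± 48.1 CPM, a ratio of 1.09. TuD 4, 5 and 10 lay above all NC livers in the sum of all members, and TuD 11 at 264 CPM was the lowest of the 11. The ratio of alpha to beta CPM was 2.49 ± 0.184 in NC and 2.65 ± 0.507 in TuD livers, from 2.11 in TuD 11 to 3.44 in TuD 3. The larger spread in TuD livers was thus also present in the balance of the subunits. Scaled by library size only, the ratio for all members was 1.30, where the median gene was also 0.23 higher on the log2 scale.

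The genes that fold, nucleate, modify, bind or move along tubulin were examined as lists, beside 10 other tubulin isotypes and 6 tubulin pseudogenes. Of these isotypes 1 was tested, and of the pseudogenes 0. Of 127 listed genes, 94 were tested, 4 of them were higher (4.26%) and 5 lower (5.32%), beside 7.24% and 4.33% of all tested genes. None of 7 tubulin folding cofactor genes was called in either direction, and their median log2 fold change was 0.03. Of 14 CCT chaperonin and prefoldin genes only *Pfdn5*, a prefoldin subunit, was called, with a log2 fold change of -0.34 ± 0.08 (SE) and an edgeR adjusted p of 0.0146. The gamma-tubulin gene *Tubg1* was at 19.7 ± 1.63 CPM in NC and 19.6 ± 1.32 CPM in TuD livers, and of 11 genes of its complex and of nucleation, *Tubgcp2* was higher by 0.70 ± 0.19 (SE, edgeR adjusted p 0.0267).

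Among regulators of the polymer, *Stmn1*, which encodes a protein that binds tubulin dimers and destabilises microtubules, was higher in TuD livers. It rose from 4.78 ± 1.87 CPM (SD, n = 5) to 13.2 ± 4.42 CPM (SD, n = 6), a log2 fold change of 1.46 ± 0.27 (SE) with an edgeR adjusted p of 0.00348, with overlapping groups. It was the only gene called of 6 in the list of destabilising and severing proteins. Of 21 genes of microtubule-associated and plus-end proteins, *Map2*, best known from neuronal dendrites, was higher (1.05 ± 0.28 on the log2 scale, edgeR adjusted p 0.0234) and *Map7*, which recruits kinesin-1, was lower (-0.29 ± 0.08, adjusted p 0.0276). Among 13 tubulin modifying enzymes, *Agtpbp1*, which removes glutamates from tubulin tails, was lower (-0.55 ± 0.11 on the log2 scale, edgeR adjusted p 0.00482). Among 21 motor genes, the kinesin genes *Kif21a* (-0.46 ± 0.07, adjusted p 0.00133) and *Kif1c* (-0.30 ± 0.07, adjusted p 0.0125) were lower in the edgeR fit and the dynein light chain gene *Dynlt1a* was higher (0.44 ± 0.12, adjusted p 0.0262). *Dynlt1a* belongs to a family of near-identical copies and is uncertain.

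**Figure D4:**
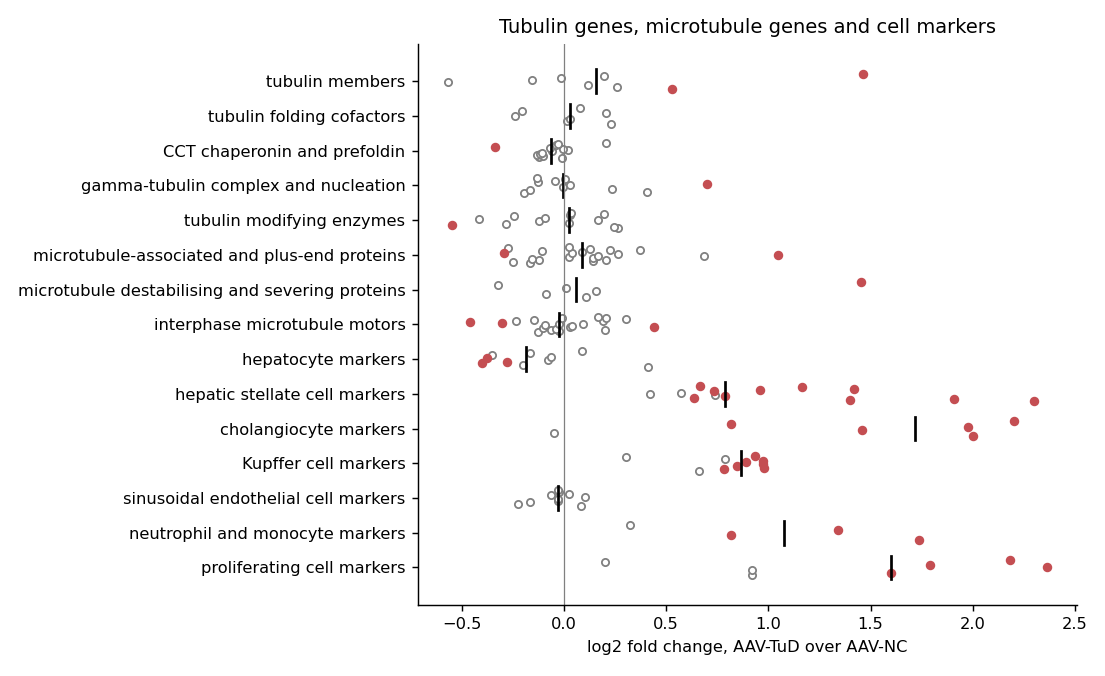
Log2 fold change of TuD over NC livers for the tested genes of each list, with red points for an edgeR adjusted p under 0.05, open points for the others and a black bar at the median. The microtubule lists centre near 0, with medians between -0.06 and 0.09, the stellate, cholangiocyte, Kupffer, neutrophil and monocyte, and proliferating lists lie to the right, and the endothelial list centres near 0.

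Markers of several cell types, though not those of sinusoidal endothelial cells, also differed between the groups. The counts of markers called stand beside 7.24% of all tested genes called higher and 4.33% lower. Of 13 hepatic stellate cell markers 10 were higher in TuD livers and none lower. The summed level of these 13 was 229 to 320 CPM in NC and 402 to 544 CPM in TuD livers. In this list *Dcn*, a matrix proteoglycan gene, had most reads (150.1 ± 21.7 to 259 ± 23.4 CPM) and *Col3a1*, a fibrillar collagen gene, the smallest p (9.17 ± 1.36 to 34.4 ± 8.08 CPM). Of 10 cholangiocyte markers listed, 6 were tested and 5 of these were higher, among them *Sox9* (log2 fold change 0.82) and *Spp1* (2.20). Sums of the tested cholangiocyte genes were 24.5 to 46.3 CPM in NC and 52.9 to 86.4 CPM in TuD livers. The filter on low counts could be passed through TuD livers alone, so some low genes may be tested only because they are high there. Kupffer cell markers were higher in 7 of 10, with overlapping sums of 126 to 186 and 141 to 399 CPM, among them *Csf1r* (0.98) and *Vsig4* (0.93). Neutrophil and monocyte markers were tested for 4 of 8 listed, and 3 of these were higher, among them *Lyz2* (1.34) and *Ccr2* (1.74). Sums of the tested genes of this list were 24.7 to 41.1 CPM in NC and 42.1 to 103 CPM in TuD livers.

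Genes of proliferating cells, which build a spindle from tubulin, were tested for 7 of 12 listed, under the same limit of the filter. Of these, 4 were higher, among them *Top2a* (log2 fold change 2.18) and *Cdk1* (2.36). Sums of the tested proliferating genes were 9.39 to 20.2 CPM in NC and 18.4 to 68.2 CPM in TuD livers. None of 10 sinusoidal endothelial markers was called by edgeR, with sums of 264 to 292 and 263 to 284 CPM, and *Ptprb* was at 109 ± 6.37 and 110.4 ± 4.75 CPM. The hepatocyte list had 0 higher and 3 lower of 10, with a median log2 fold change of -0.19 and 2 of 10 positive. Its sum was 37520 to 43767 CPM in NC and 44107 to 50664 CPM in TuD livers. This sum does not describe most of the list, as *Alb* had most reads in it. *Alb* was at 21096 ± 2304 CPM in NC and 28044 ± 2727 CPM in TuD livers and was not called (edgeR adjusted p 0.0805). The called hepatocyte gene with the smallest p, *Apob*, was at -0.40 on the log2 scale. No gene of these lists was listed at 0 in a liver except 1 of the proliferating list. The part of these cell types in the levels of *Tubb6*, *Tuba1a* and *Stmn1* was not tested.

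**Figure D5:**
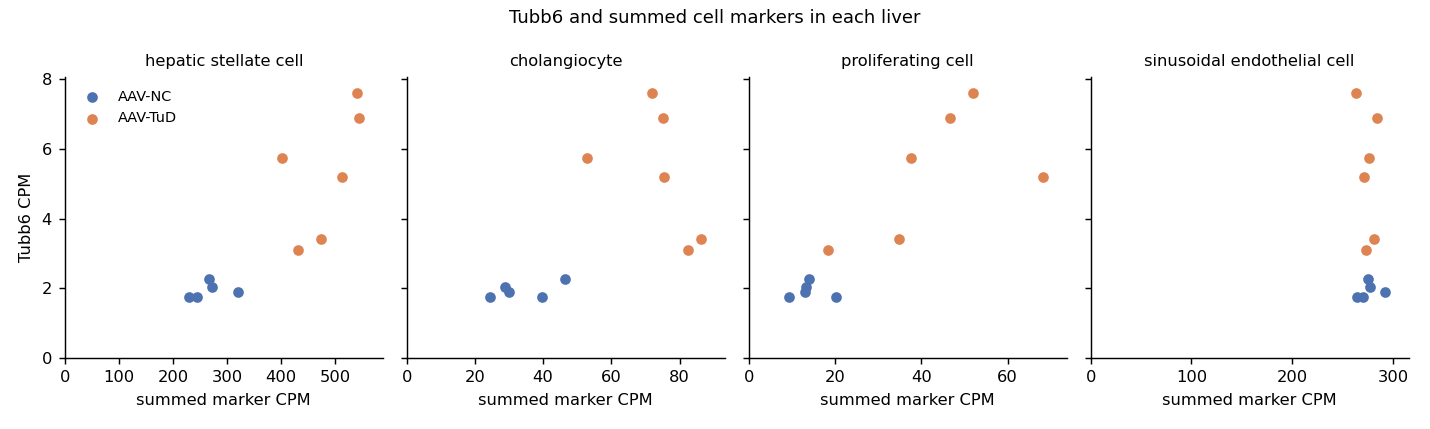
*Tubb6* CPM (vertical axis) against the summed CPM of the markers of a cell type (horizontal axis) in each liver, for the stellate, cholangiocyte, proliferating and sinusoidal endothelial lists, with NC in blue and TuD in orange. *Tubb6* and the stellate and cholangiocyte sums separate the groups, the proliferating sums overlap at 18.4 CPM in TuD 3 and 20.2 CPM in NC 8, and the endothelial sums stay between 263 and 292 CPM in both groups.

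Within the TuD group, the order of *Tubb6* matched that of the stellate, proliferating, Kupffer, and neutrophil and monocyte sums in part. No relation to a cell type was tested. TuD 9 and TuD 10, with most *Tubb6* at 7.61 and 6.90 CPM, had the highest stellate sums, at 540.4 and 544 CPM, but TuD 5, the next at 5.74 CPM, had the lowest stellate sum of the group, at 402 CPM. TuD 4 had the highest proliferating sum, at 68.2 CPM, and less *Tubb6* than TuD 5, 9 and 10, at 5.19 CPM. TuD 3 and TuD 11, with least *Tubb6* at 3.10 and 3.42 CPM, had the lowest proliferating sums of the group, at 18.4 and 34.9 CPM. Their Kupffer sums were also the lowest, at 141 and 215 CPM, as were their neutrophil and monocyte sums, at 42.1 and 53.2 CPM. Both of these sums were highest in TuD 10, at 399 and 103 CPM. In TuD 9 they were 246 and 61.8 CPM, below those of TuD 4 and TuD 5. The cholangiocyte sum was highest, at 82.6 and 86.4 CPM in TuD 3 and TuD 11, which had least *Tubb6*.

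How the members varied together was described by Pearson's r of log2 CPM over the 11 livers after the mean of each group was removed, a measure in which all genes share library and scaling. The closest pairs were *Tubb2a* and *Tubb5* (r = 0.678), *Tuba1c* and *Tubb5* (0.647), *Tuba1b* and *Tubb5*, and *Tuba1b* and *Tubb6* (0.598), in falling order. *Tuba1a* and *Tuba1b*, the pair most alike in sequence, stood at 0.024, and the lowest pair was *Tuba1c* and *Tubb4b* at -0.137. The genes nearest to *Tubb6* among 8323 with a mean of at least 50 reads were *Tnfrsf1a* (0.888), *Keap1* (0.88), *Selenoh* (0.878), *Psmd8* (0.867) and *Tmem141* (0.861), none of which was called between the groups by edgeR. Those nearest to *Tuba1c* were *Sf3b4* (0.919), *Magoh* (0.916), *Zfp322a* (0.904), *Tmem41b* (0.902) and *Utp4* (0.902). The highest of 8323 values of r over 11 livers are large by selection, and these are given as a description.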

How the data were processed

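RNA of 11 mouse livers was measured with the QuantSeq 3′ mRNA-Seq V2 kit. The authors used BBDuk for trimming, STAR 2.5.3a for alignment to GRCm38 and Rsubread for counting, and deposited whole-number read counts per gene without normalization. Annotation, strand setting and how multi-mapping reads were treated are not given in the sources used here. Groups and replicate numbers came from the sample labels.

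The study's filter was kept: a gene was tested if 5 or more livers each had over 10 of its reads. Groups were compared in R 4.3.3 by edgeR 4.0.16 (quasi-likelihood), with TMM factors and Benjamini-Hochberg adjustment over 13334 genes, at an adjusted p value under 0.05. Log2 CPM used a prior count of 2. The method was tested on simulated data. Sample totals were 8148531 to 12043959 reads, so a gene at 1 CPM rests on about 10 reads. Shares carry 95% Wilson intervals.

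Alternatives were DESeq2 1.42.0, DESeq2 size factors (RLE), no filter, filterByExpr, library size alone, upper-quartile factors, limma-voom (limma 3.58.1) with quality weights, removal of the *Mup* genes, and each liver left out in turn. The members, the gene lists and the tests were chosen with earlier results of these data known. Named beside the members were the 5 genes nearest to the called member with the smallest p and to the member with most reads (mean of at least 50 reads), up to 4 called genes of each microtubule list by smallest p, and for each marker list the gene with most reads and the called gene with the smallest p. *Tubg1*, *Stk16* and *Gm6682* were named after their values were seen. *Gm49450*, *Gm41396* and *Fam166a* were named because they overlap members in the annotation. Gene positions, coding regions and 3′ untranslated regions came from GENCODE M21 (GRCm38), and microRNA sequences from RefSeq (GRCm38.p6). Some sequences are not reported here.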

Additional observations from a re-analysis of the deposited data

Results flagged for a closer look

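Of 40 groups of member values and shares examined for a liver far from the rest of its group, where about 2 would be marked by chance at 1 in 20, 1 was marked. The share of *Tubb4b* in the beta-tubulin reads of TuD 10 was 0.855%, against 1.41% to 1.64% in the other 5 TuD livers, a gap of 0.704 of the group's range. It rests on 11 *Tubb4b* reads in TuD 10.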

How the results depend on the processing

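No paired analysis was possible because the groups share no replicate number. *Tubb6* was called in 19 of 19 alternatives and *Tuba1a* in 8 of 19; members called higher numbered 1 with DESeq2, with RLE factors and with no filter. With library size alone, 71 genes were called lower, the sums of the alpha, beta and all members were 1.31, 1.27 and 1.30 times the NC level, and *Tubb2a* and *Tubb4b* reversed to 0.11 and 0.21. *Tubb4b*, near 0 in the main analysis, also reversed to 0.00051 with limma-voom and to 0.04, 0.04, 0.23, 0.03, 0.07 and 0.01 without NC 2, TuD 3, NC 6, TuD 9, TuD 10 and TuD 11 (range -0.14 to 0.23). With each liver left out in turn, genes called ranged from 1012 (without TuD 4) to 1829 (without TuD 3), those lower from 337 (without TuD 4; 379 without TuD 10) to 714, members called higher from 1 to 3 and lower from 0 to 1 (*Tuba4a*, without TuD 5). The TuD minus NC difference in share ranged from 2.75 (without TuD 9) to 3.90 percentage points for *Tubb6* and from -0.30 to 0.17 (without NC 6) for *Tubb4b*. For *Tuba1c* it was -1.45 with all livers, and -0.31, -0.80, -0.48, -2.60 and -2.55 without NC 7, TuD 10, TuD 11, TuD 3 and NC 6. For *Tuba1b* it was 1.80, and 0.80, 1.03, 0.96, 2.85 and 2.93 without the same livers in that order, and for *Tubb5* it was 3.95, and 2.52 without NC 2. The differences for *Tuba1a*, *Tuba4a* and *Tubb2a* moved by less than 1.5 times. As a share of all members, the *Tuba1c* difference of -0.27 became 0.05 when other listed isotypes were added to the total. The cause of these shifts was not tested. *Tubb4b*, *Tubb6*, *Tuba1a* and *Tuba4a* rest on fewer than 100 reads in each liver, which limits what size of difference can be seen.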
